A study of Rattus norvegicus with 12 samples.

Results

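The anterior pituitary glands of 2 congenic rat lines, Ept6 and Ept9, were compared after 12 weeks of treatment with diethylstilbestrol (DES), a synthetic estrogen. The comparison used the 6 arrays titled Ept6 or Ept9, 3 per line, of the 12 arrays in the table used here, and every probe set except the AFFX controls was tested (31042 of 31099). At an adjusted p under 0.05, 5 probe sets differed between the lines, which is 0.0161% of those tested. Probe sets of *Ddx5*, *Lcn2* and *Doc2b* were higher in Ept6 (0.00966%) and probe sets of *Fubp3* and *Serpinf1* were higher in Ept9 (0.00644%), while a second probe set of *Ddx5* and of *Fubp3* was not called and ran the opposite way. All 5 genes lie on chromosome 3 or chromosome 10, the chromosomes that carry the donor segments of these lines and 1073 and 1217 of the 14205 measured genes with a known chromosome. With any one of the 6 arrays left out, limma called none of the 5 and no other probe set, with 1950 to 2693 at an unadjusted p under 0.05.

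All 4 lines of the series carry alleles of the Copenhagen (COP) rat on the ACI background. The donor segment lies on chromosome 3 in Ept6, on chromosome 10 in Ept9, on chromosome 6 in Ept1 and again on chromosome 3 in Ept2, each within the linkage interval of the locus that names the line. Every animal was a male that received a silastic implant with 5 mg of DES under the skin at 9 weeks of age, a BrdU injection of 50 mg/kg given 4 h before the end, and was killed at 21 weeks. The Ept6 and Ept9 arrays therefore differ by line and share the treatment, and no untreated, ACI or COP array was analysed here. The labels conflict on replication: one speaks of 3 biological replicates per line, another of 3 males that gave fewer independent replicates, so that the p-values may measure a spread that is technical in part. Where the donor segments begin and end is not stated in the labels.

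Estrogens bind estrogen receptor alpha in the lactotrophs, the prolactin-secreting cells of the anterior pituitary, where they increase prolactin transcription and drive proliferation. In rats that respond strongly the lactotroph population expands into a hyperplastic, vascular gland, and the ACI strain is known for such a response. A congenic line isolates the donor alleles of one chromosome segment on a common background, and a gene inside the segment can differ in its transcript, in its level, or in the bases that a probe on an array has to match.

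The signals are linear, scaled by the authors to a common trimmed mean, and differences are given as Ept6 minus Ept9 on log2(signal + 16), which understates the change of dim genes. Correlations between arrays ran from 0.966 to 0.970 within a line and from 0.963 to 0.969 between the lines. The array medians lay between 124 and 128.2 in Ept6 and between 119.8 and 122.7 in Ept9. At an unadjusted p under 0.05, limma gave 2376 probe sets (7.65%), of which 1459 were higher in Ept6 (4.7%) and 917 higher in Ept9 (2.95%). At an unadjusted p under 0.001 there were 106 (0.341%), 61 higher in Ept6 (0.197%) and 45 in Ept9 (0.145%). The 3 arrays of one line lay wholly above the 3 of the other for 4679 probe sets (15.1%).

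**Figure D1:**
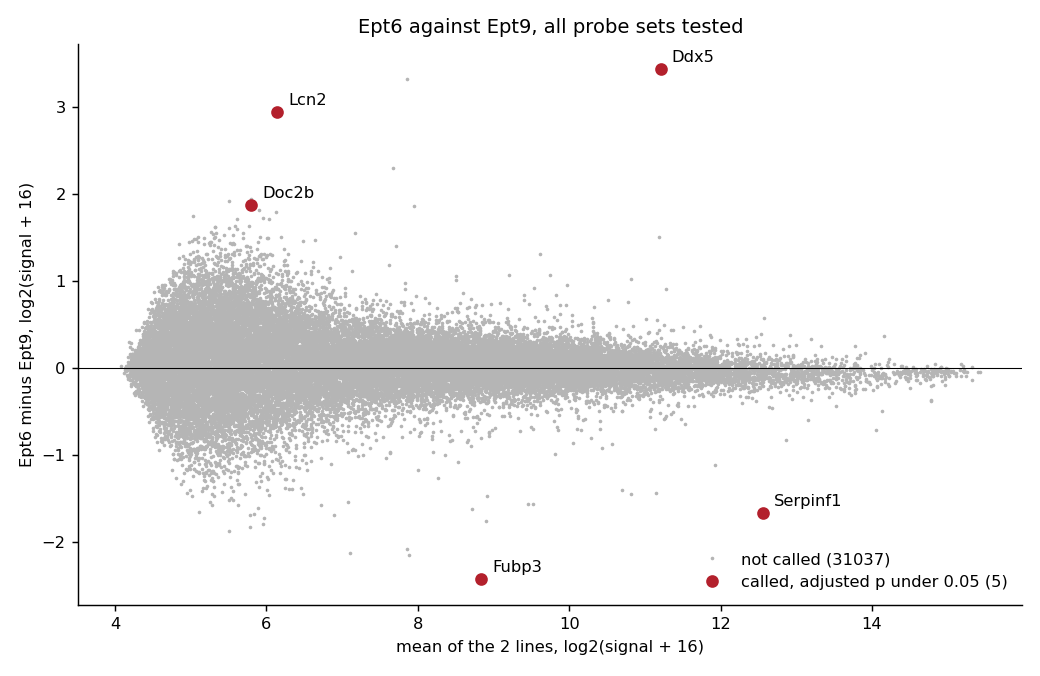
Each point is 1 of 31042 probe sets; the horizontal axis is the mean of both lines and the vertical axis the Ept6 minus Ept9 difference, both on log2(signal + 16), with the 5 called probe sets in red. The grey cloud widens toward dim probe sets, and *Ddx5* (3.43), *Lcn2* (2.94), *Fubp3* (-2.43) and *Serpinf1* (-1.67) lie outside it while *Doc2b* (1.87) lies at its edge.

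The labelled tissue was checked against the hormones of the gland. *Prl*, which encodes prolactin, was between 42834.5 and 43842.7 in Ept6 and between 43469.2 and 46327.1 in Ept9. It was among the brightest probe sets of every array, at a percentile of at least 99.997 in both lines, so that a ceiling of the signal was not tested. Its difference was -0.04, with a 95% interval from -0.28 to 0.19. *Gh1*, growth hormone, differed by -0.10 (95% interval -0.38 to 0.18), and *Cga*, the common subunit of the glycoprotein hormones, by -0.15 (-0.40 to 0.09). *Tshb*, the specific subunit of thyrotropin, differed by -0.21 (-0.66 to 0.23). *Pomc*, the precursor of ACTH, was dim, with signals of 120.6, 84.2 and 11.5 in Ept6 and of 23.2, 13.1 and 22.7 in Ept9. *Avp* and *Oxt*, whose peptides are released from the posterior lobe, stayed between 5.9 and 104.8 in Ept6 and between 6.7 and 60.4 in Ept9. *Prl*, *Gh1*, *Cga* and *Tshb* were thus bright in both lines, while *Pomc*, *Avp* and *Oxt* were dim. How much posterior lobe the samples held was not tested. *Lhb* and *Fshb*, the specific subunits of the gonadotropins, are not given here. In whole glands, fewer cells of a type and less RNA per cell cannot be told apart.

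*Ddx5*, which encodes an RNA helicase that takes part in splicing and acts as a coactivator of several transcription factors including the estrogen receptor, showed the largest difference of all called probe sets. Its called probe set gave signals of 8135.1, 7351.8 and 7758.1 on the Ept6 arrays. On the Ept9 arrays it gave 743.4, 623.3 and 753.3. The lines did not overlap, and the Ept6 values lay within the 7297.8 to 8179.7 measured on the 6 arrays of Ept1 and Ept2. The difference was 3.43 ± 0.12 (SE, n = 3 per line), which is 10.8-fold (limma, adjusted p = 0.00699). Relative to the mean of Ept1 and Ept2, Ept9 differed by -3.43 (adjusted p = 1.51e-07) and Ept6 by -0.00451 (adjusted p = 0.995).

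The second *Ddx5* probe set did not show this. It read 8188.7, 7861.9 and 7347.3 in Ept6 and 9152.7, 9152.6 and 9242.8 in Ept9, a difference of -0.24 ± 0.10 (SE, n = 3 per line) in the opposite direction (limma, adjusted p = 0.663). One probe set of *Ddx5* therefore was 10.8-fold lower in Ept9 while the other gave its highest signals of all 4 lines there. Which part of the transcript each probe set reads, and whether donor bases lie under the probes of the called one, was not tested. 1 probe set of a gene was enough to call it, and *Ddx5* and *Fubp3* were each read by 2 probe sets while the other called genes had 1.

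*Fubp3*, which encodes a single-stranded nucleic acid-binding protein of the FUBP family, lies on chromosome 3 and was the counterpart in Ept6. Its called probe set gave 180.8, 198.8 and 164.0 in Ept6. It gave 1146.7, 1046.2 and 945.9 in Ept9, close to the 820.3 to 1218.3 of Ept1 and Ept2. Only the Ept6 arrays stood apart, and those of Ept2, whose segment also lies on chromosome 3, stayed between 820.3 and 1031.6. The difference was -2.43 ± 0.13 (SE, n = 3 per line), or 5.38-fold (limma, adjusted p = 0.0226), and Ept6 differed from Ept1 and Ept2 by -2.41 (adjusted p = 2.7e-05) and Ept9 by 0.02 (adjusted p = 0.980). The other *Fubp3* probe set ran the opposite way, with 1815.7, 2152.4 and 1735.2 in Ept6 against 1014.0, 1091.0 and 1194.7 in Ept9. That difference of 0.78 ± 0.13 (SE, n = 3 per line) was not called (limma, adjusted p = 0.310), although the arrays of the lines did not overlap. The level of *Fubp3* as a gene therefore has no settled direction in these data.

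**Figure D2:**
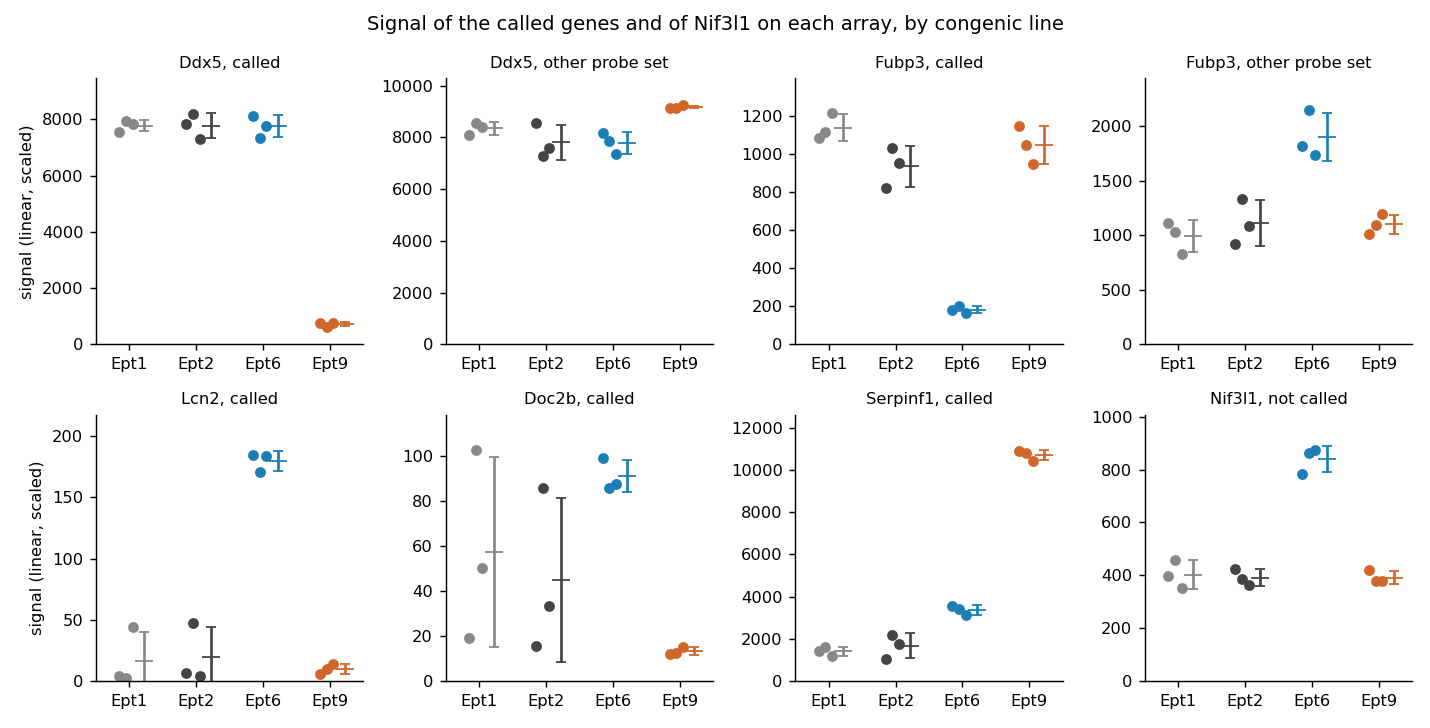
Signal of single probe sets on each of the 12 arrays, with 1 panel per probe set, linear vertical axes that start at 0 and the mean ± SD of the 3 arrays beside each line. The called probe set of *Ddx5* was low in Ept9 alone and that of *Fubp3* in Ept6 alone, while the other probe set of each gene ran the opposite way; *Lcn2* and *Nif3l1* were high in Ept6 alone, and *Serpinf1* was highest in Ept9.

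*Serpinf1* encodes pigment epithelium-derived factor, a secreted serpin that inhibits angiogenesis, and was bright and higher in Ept9. Its only probe set gave 3550.3, 3417.4 and 3129.6 in Ept6. In Ept9 it gave 10917.3, 10807.5 and 10453.6, and in Ept1 and Ept2 from 1047.2 to 2193.9. The 2 lines did not overlap, and both lay above all 6 arrays of Ept1 and Ept2. The difference was -1.67 ± 0.10 (SE, n = 3 per line), which is 3.18-fold (limma, adjusted p = 0.0322). Against Ept1 and Ept2, Ept9 differed by 2.83 (adjusted p = 0.000445) and Ept6 by 1.16 (adjusted p = 0.0974). These contrasts share the Ept1 and Ept2 arrays with each other.

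*Lcn2*, which encodes lipocalin 2, a secreted protein that binds iron-carrying bacterial siderophores, was the most distinct gene on the Ept6 side after *Ddx5*. Its probe set read 184.9, 170.7 and 183.8 in Ept6. In Ept9 it read 5.7, 9.5 and 13.8, and the 6 arrays of Ept1 and Ept2 lay between 2.1 and 47.6 with a median of 5.2. *Lcn2* was thus measured above the dim range in Ept6 alone. The difference was 2.94 ± 0.15 (SE, n = 3 per line), or 7.69-fold on this scale (limma, adjusted p = 0.0226), and it moved from 1.73 with a pseudocount of 64 to 4.16 with a pseudocount of 1, where it was not called (adjusted p = 0.128, in a range from 0.0034 to 0.699 over the alternatives that kept all arrays). Relative to Ept1 and Ept2 the Ept6 difference was 2.75 (adjusted p = 0.0776).

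*Doc2b*, a calcium sensor that promotes vesicle exocytosis, was higher in Ept6 and uneven in Ept1 and Ept2. It read 98.9, 85.8 and 87.5 in Ept6 and 11.8, 12.6 and 15.1 in Ept9. The single arrays of Ept1 (19.0, 102.5 and 50.2) and of Ept2 (15.5, 85.7 and 33.3) covered most of the range between them, and all 6 lay above the Ept9 arrays. The difference of 1.87 ± 0.11 (SE, n = 3 per line) was called (limma, adjusted p = 0.0306). As the Ept9 signals are dim, it moved from 1.00 with a pseudocount of 64 to 2.70 with a pseudocount of 1, where it was not called (adjusted p = 0.0551), and it was not called either when the spread was taken from all 12 arrays (adjusted p = 0.381, in a range from 0.0296 to 0.699 over the alternatives that kept all arrays). Against Ept1 and Ept2 neither Ept6 (0.85, adjusted p = 0.631) nor Ept9 (-1.02, adjusted p = 0.524) was called. *Lcn2* and *Doc2b* lie below the 40th percentile of mean signal (65.6) and were not tested where dim probe sets were left out.

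The sizes of the called differences moved little with single arrays, while the calls depended on all 6. Leaving out each array in turn, the *Ddx5* difference ran from 3.34 to 3.48 (limma, adjusted p from 0.0573 to 0.153) and that of *Lcn2* from 2.83 to 3.06 (0.0573 to 0.206). *Doc2b* ran from 1.82 to 1.92 (0.180 to 0.220), *Fubp3* from -2.50 to -2.36 (0.128 to 0.206) and *Serpinf1* from -1.71 to -1.62 (0.180 to 0.297). For Gapdh, the log2 signal of the 3' control minus that of the 5' control, a measure of RNA integrity, was 0.14 ± 0.06 in Ept6 and 0.21 ± 0.06 in Ept9 (SD, n = 3), and with it as a covariate limma called no probe set, with 2093 at an unadjusted p under 0.05. The differences in that fit were 3.44 for *Ddx5*, 2.80 for *Lcn2*, 1.82 for *Doc2b*, -2.30 for *Fubp3* and -1.63 for *Serpinf1*, close to those without it (adjusted p from 0.186 to 0.464).

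The stretches before the start sites of *Serpinf1* and *Lcn2* are shown because each gene was called through its only probe set, 1 in each direction. They are 250 bases from RefSeq, written 5′ to 3′ on the strand of the gene, with GGTCA in capitals, the 5 letters that the response element of estrogen receptor alpha carries on each strand, as GGTCA and TGACC with 3 free bases between.
Serpinf1 promoter, GRCr8 chr10:60760899-60761148, minus strand: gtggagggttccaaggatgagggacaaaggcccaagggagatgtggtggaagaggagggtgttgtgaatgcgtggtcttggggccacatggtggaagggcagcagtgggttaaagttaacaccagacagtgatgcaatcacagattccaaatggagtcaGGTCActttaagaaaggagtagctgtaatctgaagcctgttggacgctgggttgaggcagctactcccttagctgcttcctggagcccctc
Lcn2 promoter, GRCr8 chr3:36081781-36082030, minus strand: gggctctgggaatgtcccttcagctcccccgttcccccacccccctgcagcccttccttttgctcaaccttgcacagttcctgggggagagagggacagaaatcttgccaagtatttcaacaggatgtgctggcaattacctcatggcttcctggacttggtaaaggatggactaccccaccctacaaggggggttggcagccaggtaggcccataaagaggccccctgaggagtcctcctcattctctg
RefSeq promoters were found for 4 of the 5 called genes, namely *Ddx5*, *Lcn2*, *Serpinf1* and *Fubp3*. GGTCA or its reverse complement TGACC occurred once before *Serpinf1* and once before *Ddx5*, and not in the windows of *Lcn2* and *Fubp3*. Of all 33469 promoter windows of this length, 35.4% hold one or the other. The full element occurred in none of the 4 and in 8 of all (0.0239%). The *Serpinf1* window held 2 CpG dinucleotides and the *Lcn2* window 1, beside 22 in that of *Ddx5* and 26 in that of *Fubp3*. These are the letters of the reference assembly and not of the COP segments.

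Beyond the called probe sets, the genes with the smallest unadjusted p in each direction were not called and are given as values. *Cwc25*, a splicing factor on chromosome 10, read 423.0, 459.0 and 423.8 in Ept6 and 57.5, 94.5 and 80.1 in Ept9, a difference of 2.29 ± 0.17 (SE, n = 3 per line; limma, adjusted p = 0.0855). All 6 arrays of Ept1 and Ept2 lay between 379 and 443.5, and Ept9 was lower than those by 2.20 on the log2 scale (adjusted p = 0.000149). *Cwc25* thus followed the pattern of the called *Ddx5* probe set, low in Ept9 alone. *Sardh*, which encodes the mitochondrial sarcosine dehydrogenase and lies on chromosome 3, read 1262.4, 1311.0 and 1105.1 in Ept6 and 539.4, 492.5 and 424.2 in Ept9 (1.31 ± 0.14, SE, n = 3 per line; limma, adjusted p = 0.146). Ept6 was higher than Ept1 and Ept2 by 1.56 (adjusted p = 0.000466), and the other *Sardh* probe set differed between Ept6 and Ept9 by 0.97 (adjusted p = 0.472). With probe sets below the 40th percentile of mean signal left out, limma called 16 of 18625 (0.0859%), among them *Cwc25*, *Sardh*, *Nif3l1* and *Akr1b8*.

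*Nif3l1* on chromosome 9, where neither line has its segment by the labels, was read by 2 probe sets that ran the same way. The dimmer one gave 736.6, 713.3 and 695.3 in Ept6 and 86.4, 74.3 and 26.6 in Ept9, a difference of 3.32 ± 0.34 (SE, n = 3 per line) that was larger than that of *Lcn2* and was not called (limma, adjusted p = 0.146). The brighter one gave 784.5, 862.2 and 872.6 against 418.3, 378.7 and 377.2, a difference of 1.07 ± 0.11 (SE, n = 3 per line; limma, adjusted p = 0.146). Both were higher in Ept6 than in Ept1 and Ept2, by 3.35 (adjusted p = 0.000956) and 1.06 (adjusted p = 0.00553). Close to *Nif3l1* in the order of measured genes (299 of 565), *Trak2*, an adaptor of mitochondrial transport at position 305, differed by 0.95 ± 0.13 and *Maip1*, a mitochondrial protein gene at position 290, by -1.26 ± 0.17 (SE, n = 3 per line; limma, adjusted p = 0.220 and 0.236). The other *Trak2* probe set differed by -0.21 (adjusted p = 0.719). *Trak2* and *Maip1* were chosen after their values were seen.

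On the side of Ept9, *Akr1b8*, an aldo-keto reductase gene on chromosome 4, read 456.4, 335.4 and 452.2 in Ept6 and 1322.4, 1131.2 and 1282.4 in Ept9, a difference of -1.56 ± 0.16 (SE, n = 3 per line; limma, adjusted p = 0.146). *Fn3k*, the kinase that acts on sugar-modified proteins, read 995.3, 1381.9 and 909.9 in Ept6 and 2970.7, 2864.0 and 3068.5 in Ept9 (-1.45 ± 0.18, SE, n = 3 per line; limma, adjusted p = 0.172). It lies at the end of chromosome 10, at position 1213 of 1217 measured genes, and Ept9 was higher than Ept1 and Ept2 by 1.30 (adjusted p = 0.0137). The remaining genes given by the rule were dim in at least 1 line. In Ept6 the receptor gene *Grm6* read 46.3 to 63.0 and the proteoglycan gene *Omd* 86.9 to 105.9, against 4.7 to 7.8 and 8.7 to 19.6 in Ept9. In Ept9 *Pcdh15*, *Lgals12*, *Gria3* and *Traf1* read from 32.9 to 104.4, and in Ept6 from 2.6 to 20.3. For these 6 genes the arrays of the lines did not overlap, and limma gave adjusted p-values from 0.113 to 0.146. The other probe set of *Gria3* differed by -0.11, that of *Traf1* by 0.54 in the opposite direction, and those of *Grm6* by 1.04 and 0.12.

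Among the further probe sets, 2 to which the annotation gives no gene stood out in the same way. One read 3917.1, 3281.2 and 4572.8 in Ept6 against 1373.4, 1283.7 and 1429.4 in Ept9, and Ept6 was higher than Ept1 and Ept2 by 1.41 (adjusted p = 0.000956). The other read 235.9, 251.8 and 188.2 in Ept6 against 722.4, 699.4 and 738.7 in Ept9, and Ept9 was higher than Ept1 and Ept2 by 1.68 (adjusted p = 0.000831). Neither was called between Ept6 and Ept9 (limma, adjusted p = 0.146 and 0.113). Both were chosen after their values were seen.

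The share of genes with a small p was above that of the other chromosomes on chromosome 10, while on chromosome 3 it depended on the threshold and on the probe set that stands for a gene. With the brightest probe set standing for each gene, 122 of 1217 measured genes on chromosome 10 had an unadjusted p under 0.05 (10.0%). On chromosome 3 this held for 72 of 1073 (6.71%), and on all chromosomes but 3 and 10 for 806 of 11915 (6.76%). At an unadjusted p under 0.001 there were 11 genes on chromosome 10 (0.904%), 3 on chromosome 3 (0.280%) and 25 on the others (0.210%). Single chromosomes among the others varied, and chromosomes 17 (3 of 410, 0.732%) and 9 (3 of 565, 0.531%) lay above chromosome 3. Within chromosome 10 the share with a p under 0.05 was 6.17% in the first 405 genes of the order, 13.1% in the next 406 and 10.8% in the last 406. On chromosome 3 it was 8.12%, 6.98% and 5.03% in successive parts of that kind. These shares are a description of the comparison and no test was made of them.

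Taking for each gene the probe set with the smallest p brings in *Ddx5* and *Fubp3*, whose called probe set is not the brightest. In that count 15 genes of chromosome 10 and 8 of chromosome 3 had an unadjusted p under 0.001. That is 1.23% and 0.746% beside 0.277% on the other chromosomes together. Among those others the share was 0.732% on chromosome 17 (3 of 410), close to that of chromosome 3, and 1 of 4 genes on chromosome Y. Of the 15 on chromosome 10, 8 were higher in Ept6 and 7 higher in Ept9, and of the 8 on chromosome 3 each line had 4. Both directions thus occurred on each chromosome, and which of these genes lie within a donor segment is not known here. On chromosome 3 *Fubp3* and *Lcn2* lay close together, at positions 156 and 174 of 1073, with *Sardh* at 90 and *Traf1* at 206. On chromosome 10 *Serpinf1* and *Doc2b* lay at positions 587 and 598 of 1217 and *Ddx5* at 1030.

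**Figure D3:**
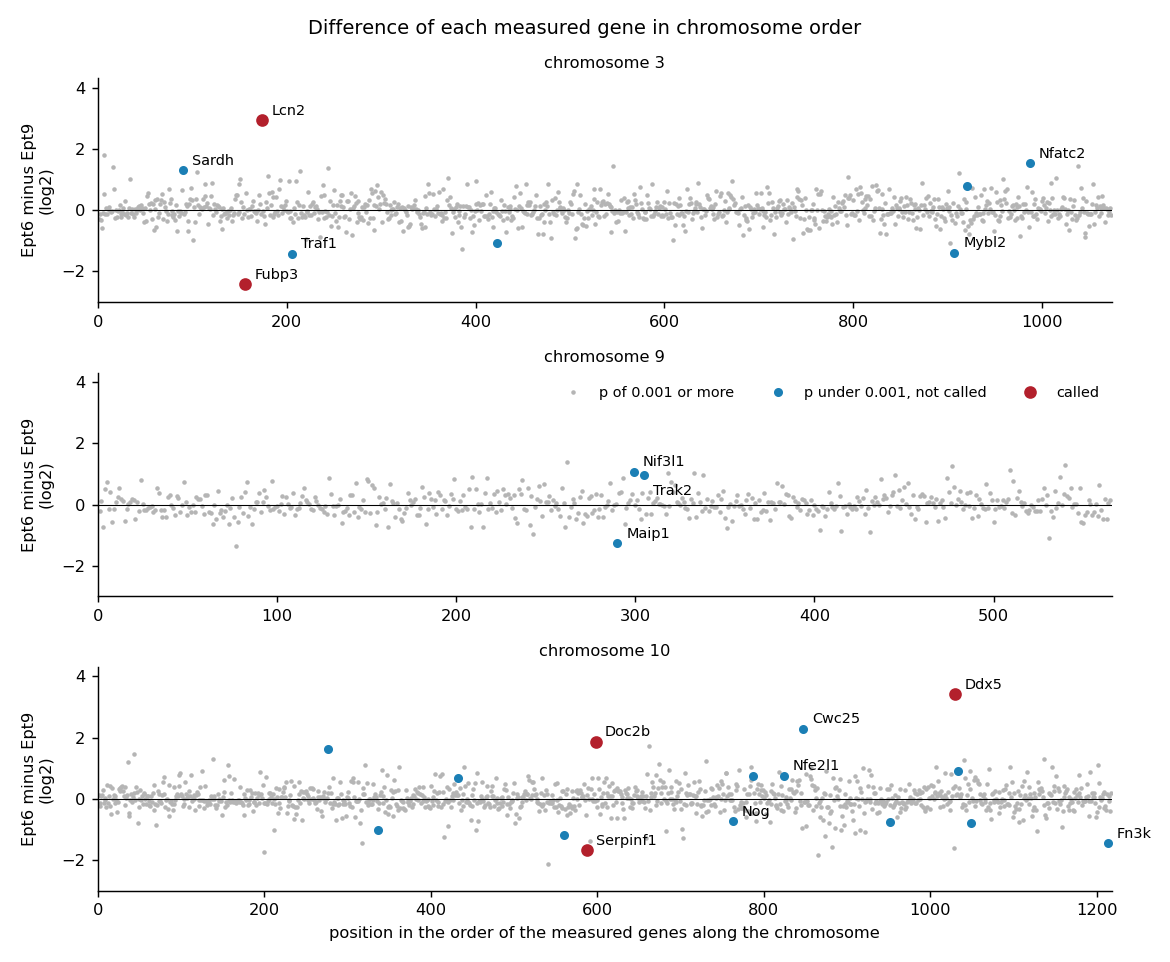
Ept6 minus Ept9 difference on log2(signal + 16) of each measured gene, placed by its rank in the order along chromosomes 3, 9 and 10, with the probe set of smallest p standing for the gene. Called genes are red and genes with an unadjusted p under 0.001 blue; on chromosome 10 the blue and red points run from position 277 to 1213, and on chromosome 3 both called genes lie between positions 156 and 174.

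Further genes of chromosome 10 differed between Ept9 and the mean of Ept1 and Ept2, while their difference from Ept6 was not called. They and *Stat3*, for which neither was called, were chosen after their values were seen. *Nfe2l1*, a transcription factor gene of the CNC family, read 2237.5, 2310.8 and 2271.5 in Ept6 and 1418.4, 1338.3 and 1248.4 in Ept9 through its brightest probe set, a difference of 0.76 ± 0.10 (SE, n = 3 per line; limma, adjusted p = 0.220). Ept9 was lower than Ept1 and Ept2 by 0.68 on the log2 scale, that is a difference of -0.68 (adjusted p = 0.0314), and the other *Nfe2l1* probe sets gave Ept6 minus Ept9 differences of 0.47 and -0.09. *C10h17orf58* ran the same way through both of its probe sets, with differences of 0.91 (adjusted p = 0.172) and 0.58 (adjusted p = 0.407), and Ept9 differed from Ept1 and Ept2 by -0.89 (adjusted p = 0.0314) and -0.61 (adjusted p = 0.0459). *Nog*, which encodes the BMP antagonist noggin, read 738.5, 662.0 and 717.0 in Ept6 and 1178.6, 1134.1 and 1201.6 in Ept9, a difference of -0.72 ± 0.10 (SE, n = 3 per line; limma, adjusted p = 0.236), and Ept9 differed from Ept1 and Ept2 by 0.57 (adjusted p = 0.0279). *Igfbp4*, a binding protein of insulin-like growth factors, read 358.5, 410.7 and 312.3 in Ept6 and 569.6, 635.3 and 689.7 in Ept9 (-0.79 ± 0.14, SE, n = 3 per line; limma, adjusted p = 0.346; Ept9 against Ept1 and Ept2 0.90, adjusted p = 0.0359). For *Stat3*, a transcription factor of cytokine signalling, the brightest probe set differed by 1.02 (adjusted p = 0.294) and the other by -0.17 (adjusted p = 0.786), and Ept9 differed from Ept1 and Ept2 by -0.87 (adjusted p = 0.153) and 0.19 (adjusted p = 0.677).

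The other lines also show which genes set Ept6 and Ept9 together apart. In one fit of all 12 arrays, 18 probe sets differed between Ept6 and the mean of Ept1 and Ept2 (0.058%), 17 higher (0.0548%) and 1 lower (0.00322%). Between Ept9 and the same arrays 70 differed (0.226%), 45 higher (0.145%) and 25 lower (0.0805%). Both contrasts rest on the same 6 arrays of Ept1 and Ept2, so their calls are not independent, and the values of single genes are given side by side. *Akr1b8* differed from Ept1 and Ept2 by 2.10 in Ept6 (adjusted p = 0.0169) and by 3.66 in Ept9 (adjusted p = 0.000445), with all 6 arrays of Ept1 and Ept2 between 50.3 and 135.6. *Hmox1*, which encodes the inducible heme oxygenase that degrades heme, read 1000.2, 839.3 and 1203.1 in Ept6 and 2659.7, 2014.6 and 3612.7 in Ept9. It differed from Ept1 and Ept2 by 1.67 in Ept6 (adjusted p = 0.219) and by 3.07 in Ept9 (adjusted p = 0.0137), and the direct difference was -1.41 (adjusted p = 0.340). *Slc40a1*, the iron exporter ferroportin, read 1166.7, 1053.5 and 1085.3 in Ept6 and 2733.7, 1499.6 and 2041.1 in Ept9 through the first of its 3 probe sets, with Ept6 minus Ept9 differences of -0.87, -0.73 and -0.49 in the 3, none called (adjusted p = 0.528, 0.417 and 0.691). For *Akr1b8*, *Hmox1*, the first *Slc40a1* probe set and *Serpinf1* every Ept9 array lay above every Ept6 array and every Ept6 array above every array of Ept1 and Ept2. The second *Slc40a1* probe set kept this order. The third did not, as Ept9 replicate 2 (1310.4) lay below Ept6 replicate 1 (1392). *Hmox1* and *Slc40a1* were chosen after their values were seen, so this order is a description of the genes picked.

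A second kind of gene was higher in both Ept6 and Ept9 than in the other lines and differed little between them. One *Tmed9* probe set, for a transport protein between the endoplasmic reticulum and the Golgi, read from 1646.9 to 2604.8 in Ept6. The same probe set read from 1660.6 to 2254.2 in Ept9 and from 512 to 710.7 in Ept1 and Ept2. It differed from Ept1 and Ept2 by 1.66 in Ept6 and 1.61 in Ept9 (limma, adjusted p = 0.00641 and 0.0067). The other *Tmed9* probe set differed by 0.16 and 0.10 (adjusted p = 0.632 and 0.801). *Thoc3*, a subunit of an mRNA export complex, differed by 1.02 and 1.00 (adjusted p = 0.0433 and 0.0308), *Cbx6*, a Polycomb protein, by 0.67 and 0.66 (adjusted p = 0.0427 and 0.0279), and *Mapk8ip1*, a scaffold of JNK signalling, by 0.70 and 0.67 (adjusted p = 0.0427 and 0.0314). Between Ept6 and Ept9 these 4 probe sets differed by 0.06, 0.02, 0.01 and 0.03. The 2 other probe sets of *Thoc3* differed by 0.73 and 0.03 in Ept6 and by 0.59 and 0.33 in Ept9, none called. The other probe sets of *Cbx6* and *Mapk8ip1* differed from Ept1 and Ept2 by at most 0.10 in size in either line. The labels name no batch, and whether the arrays of Ept6 and Ept9 share a processing step that those of Ept1 and Ept2 do not was not tested. The line means of the RNA quality controls split the same way, while single arrays overlapped. Ept9 replicate 1 (0.28) lay above every Ept1 array for Gapdh (0.25 to 0.26). Ept1 replicate 1 (0.64) lay below every Ept6 and Ept9 array for hexokinase. The log2 distance of the 3' from the 5' control was 0.14 and 0.21 for Gapdh in Ept6 and Ept9 against 0.25 and 0.38 in Ept1 and Ept2, for beta-actin 1.59 and 1.60 against 1.69 and 1.81, and for hexokinase 0.94 and 0.93 against 0.99 and 1.29 (means, n = 3). With the Gapdh distance as a covariate the *Tmed9* differences were 2.31 in Ept6 (limma, adjusted p = 0.0637) and 2.01 in Ept9 (adjusted p = 0.0089). Those of *Thoc3*, *Cbx6* and *Mapk8ip1* were between 0.74 and 1.31 and none was called (adjusted p from 0.182 to 0.474). For all 4 genes the differences were larger with the covariate than without it. As the covariate itself differed between the line means, the part of RNA quality in these values was not tested. In the same fit *Akr1b8* (3.47, adjusted p = 0.0292) and *Serpinf1* (2.67, adjusted p = 0.0355) were called for Ept9, and *Hmox1* (2.75, adjusted p = 0.252) was not. *Tmed9*, *Thoc3*, *Cbx6* and *Mapk8ip1* were chosen after their values were seen.

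**Figure D4:**
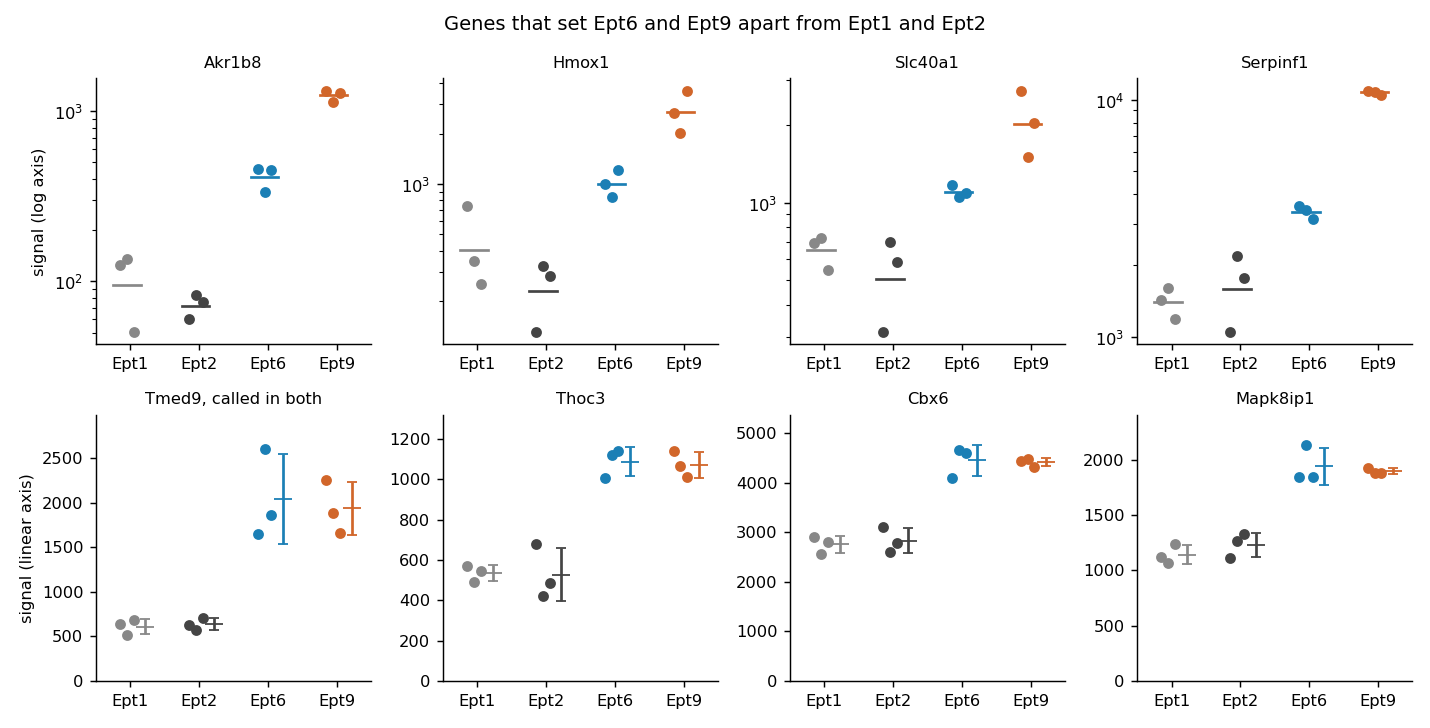
Signal on each of the 12 arrays for 4 genes with the order Ept9, Ept6, then Ept1 and Ept2 (upper panels, logarithmic axes, line at the geometric mean) and for 4 probe sets higher in both Ept6 and Ept9 (lower panels, linear axes that start at 0, mean ± SD). In the upper panels no Ept6 array overlaps an Ept9 array, and in the lower panels Ept6 and Ept9 overlap and lie above Ept1 and Ept2.

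Of 28 gene lists, none held a called gene in the direct comparison. With 1 probe set per gene, 1000 of 14217 measured genes had an unadjusted p under 0.05 (7.03%), 538 higher in Ept6 (3.78%) and 462 higher in Ept9 (3.25%), and the median difference over all genes was 0.00. The list medians ran from -0.62 (blood) to 0.28 (corticotroph and melanotroph). Both rest in part on 1 array, since the first was -0.39 without Ept9 replicate 3 and the second 0.11 without Ept6 replicate 1, and 0.09 with the filter at the 60th percentile.

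Genes of the NRF2 response and glutathione metabolism, which defend cells against oxidants and electrophiles, leaned to Ept9. Of 27 measured, 7 had an unadjusted p under 0.05 and were higher in Ept9, beside 3.25% of all genes, and none was higher in Ept6. The list median was -0.20, and -0.15 after quantile normalization and -0.25 after median centring. Besides *Akr1b8* and *Hmox1* these were *Nqo1*, a quinone reductase (167.9, 269.6 and 183.4 in Ept6 against 372.1, 384.2 and 355.9 in Ept9, a difference of -0.82), *Mgst1* (-0.49), *Cat*, catalase (-0.38), *Ggt1* (-0.35) and *Txn1*, thioredoxin (-0.24). None was called (limma, adjusted p from 0.146 to 0.644). The 7 include *Akr1b8* and *Hmox1*, which were already picked above by their values in these arrays. As the lists were chosen with earlier results of these data known, the count is a description and not a test. *Nfe2l2*, which encodes NRF2 itself, differed by 0.04 (95% interval -0.21 to 0.28), and *Keap1*, its repressor, by 0.14 (-0.13 to 0.41). *Nqo1*, *Mgst1*, *Cat*, *Ggt1* and *Txn1* did not follow the order of *Akr1b8* over the 4 lines, since their mean in Ept1 or Ept2 was above that in Ept6.

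Some blood markers were higher in Ept9, in a short list. 3 of 6 measured members of the blood list had an unadjusted p under 0.05 (50% beside 7.03% of all genes). All 3 were higher in Ept9, while 2 of the 6 estimates lay above 0. The list median was -0.62, and -0.39 without Ept9 replicate 3. The summed signal of the list was 14061.5 to 15570.4 in Ept6 and 20224.5 to 31710.3 in Ept9. *Hbb*, the beta chain of hemoglobin, made up most of it, with 12898.2, 12954.3 and 14034.8 in Ept6 against 17962.7, 20141.7 and 28745.5 in Ept9, a difference of -0.72 (limma, adjusted p = 0.554). *Pf4*, a platelet chemokine, differed by -0.87 and *Ahsp*, a hemoglobin chaperone of red cell precursors, by -0.52. In Ept1 and Ept2 the *Hbb* mean was 16313 and 18613, above that of Ept6 (13296), while *Hmox1* was lowest there. The part of blood in the *Hmox1*, *Slc40a1* and NRF2 values was not tested.

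**Figure D5:**
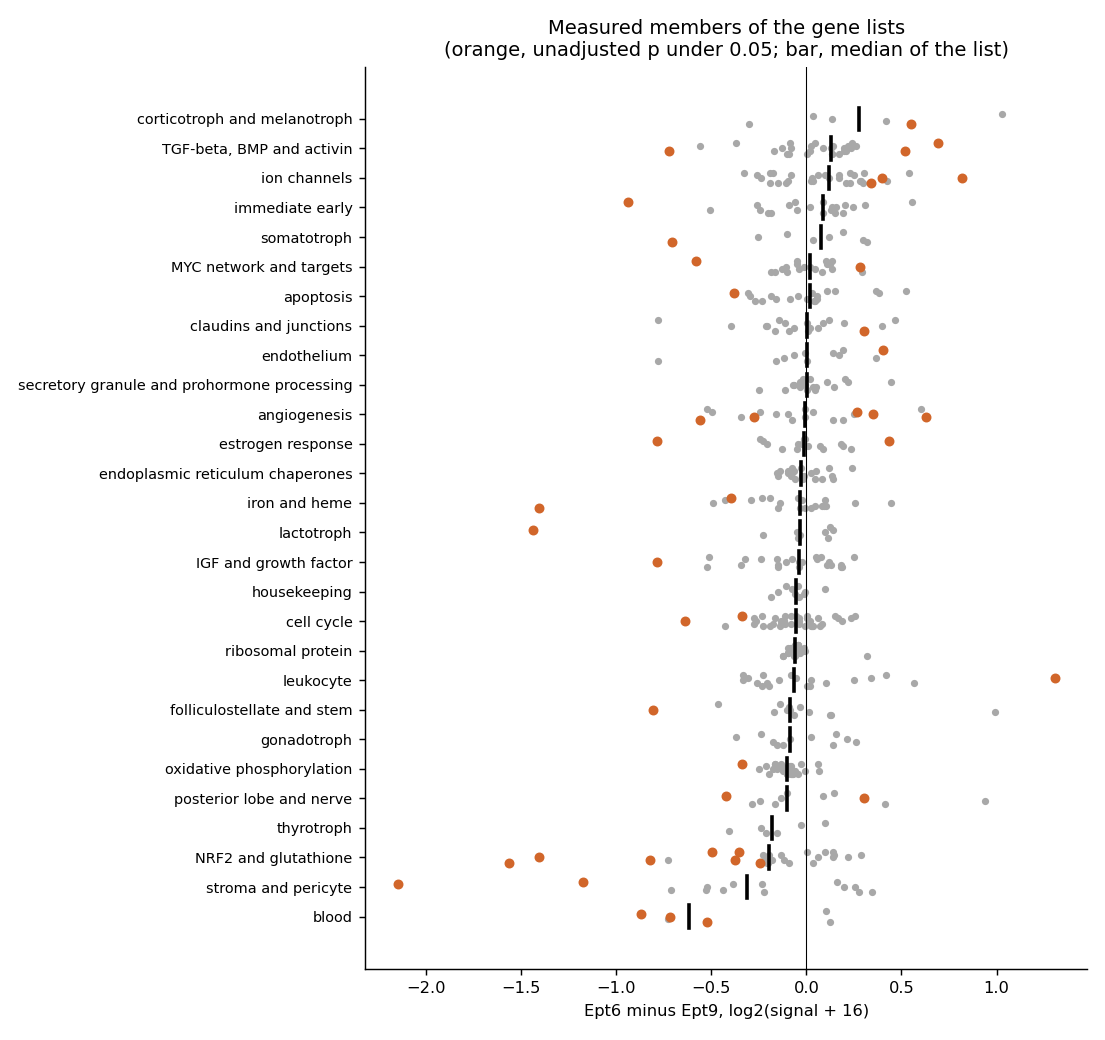
Ept6 minus Ept9 difference on log2(signal + 16) of each measured member of 28 gene lists, 1 probe set per gene, sorted by the list median (black bar), with members at an unadjusted p under 0.05 in orange. The blood list has the lowest median (-0.62), and all 7 orange members of the NRF2 and glutathione list lie below 0.

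The posterior lobe and nerve list, with 11 measured, had 1 gene in each direction at an unadjusted p under 0.05 (18.2%). The lists of hormone-secreting cells and of folliculostellate and stem cells held at most 1 such gene each. Beside 7.03% of all genes, these counts are read neither way for lists this short. Of 9 lactotroph genes there was 1 (11.1%), *Vip*, a peptide that stimulates prolactin release, with 802.3, 1878.3 and 1649.6 in Ept6 against 4528.4, 2738.0 and 4096.0 in Ept9, a difference of -1.44 (limma, adjusted p = 0.528). Its mean was 1672 in Ept1 and 4581 in Ept2, so that the 4 lines fell into a lower and a higher pair. *Drd2*, the dopamine receptor that restrains prolactin, differed by 0.11 (95% interval -0.16 to 0.39) and *Pou1f1*, the factor of the lactotroph lineage, by 0.12 (-0.15 to 0.40). *Gal*, galanin, differed by -0.05 (-0.28 to 0.18). *Esr1*, the estrogen receptor alpha gene, was dim, with 39.7, 77.1 and 50.9 in Ept6 and 98.5, 57.7 and 49.9 in Ept9, and its difference of -0.23 had a wide interval (-0.94 to 0.48). Of 13 measured folliculostellate and stem cell genes 1 and of 8 somatotroph genes 1 had an unadjusted p under 0.05, *Anxa1* (-0.81) and *Dlk1* (-0.70), and no gonadotroph or thyrotroph gene had. *Tbx19*, the factor of corticotrophs, read 147.5, 130.9 and 135.4 in Ept6 and 79.8, 102.9 and 86.2 in Ept9, a difference of 0.55 (limma, adjusted p = 0.457).

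Proliferation genes were near the background as well. Of 41 measured cell cycle genes 2 had an unadjusted p under 0.05 (4.88% beside 7.03% of all genes), *Birc5*, an inhibitor of apoptosis needed for cell division that lies on chromosome 10 (-0.64), and *Cdc25b* (-0.34), and the list median was -0.06. *Mki67*, the proliferation antigen, differed by -0.01 ± 0.13 (SE, n = 3 per line). Of 18 genes of the estrogen response, *Slc7a5*, an amino acid transporter, differed by 0.43 and *Igfbp4* by -0.79, and the median of the list was -0.01. *Pgr*, the progesterone receptor and a classical estrogen target, differed by 0.01 (95% interval -0.28 to 0.30). *Myc*, which drives cell growth, differed by -0.01 (-0.31 to 0.29). *Pvt1*, the non-coding RNA gene beside it, read 169.8, 202.8 and 215.0 in Ept6 and 432.1, 300.1 and 222.8 in Ept9, arrays that did not overlap, with a difference of -0.62 ± 0.25 (SE, n = 3 per line; limma, adjusted p = 0.655). *A1bg* stayed between 1.8 and 43.0 in Ept6 and between 6.3 and 37.4 in Ept9.

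The list of TGF-beta, BMP and activin signalling, whose members act on lactotroph growth in both directions, held 29 measured genes. Of these, 3 had an unadjusted p under 0.05 (10.3% beside 7.03% of all genes). *Id1* and *Id3*, targets of BMP signalling, differed by 0.69 and 0.52, and *Nog*, which blocks BMPs, by -0.72, none called. Their ligands and receptors differed less: *Bmp4* by 0.24, *Bmpr1a* by 0.21 and *Tgfbr1* by -0.13, all with intervals that cross 0. The angiogenesis list, of interest because *Serpinf1* inhibits that process, held 5 of 19 genes with an unadjusted p under 0.05, which is 26.3% beside 7.03% of all genes, and they pointed both ways. *Nrp2* (0.63), *Epas1* (0.35) and *Mmp2* (0.27) were higher in Ept6 and *Timp1* (-0.56) and *Hif1a* (-0.28) higher in Ept9. *Vegfa*, the main endothelial growth factor, differed by -0.01 (95% interval -0.31 to 0.30) and *Kdr*, its receptor, by -0.16 (-0.43 to 0.11). Of 11 endothelial markers 1 had an unadjusted p under 0.05 (9.09% beside 7.03%), *Tie1* (0.40). *Pecam1* differed by 0.36 (95% interval -0.20 to 0.93).

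Stromal and contractile markers were uneven. Of 14 measured genes of the stroma and pericyte list 2 had an unadjusted p under 0.05 (14.3% beside 7.03% of all genes), both higher in Ept9. The list median was -0.31, with 9 estimates below 0 and 5 above. *Tagln*, a smooth muscle protein, read 138.5, 82.3 and 76.4 in Ept6 and 334.7, 197.4 and 1611.1 in Ept9, so that its difference of -2.15 rested in large part on 1 Ept9 array (limma, adjusted p = 0.631). *Acta2*, of the same cells, differed by 0.34 and *Col1a2* by -0.52. Of 20 leukocyte genes 1 had an unadjusted p under 0.05 (5% beside 7.03% of all genes), *Itgam* (1.31). The summed signal of the list overlapped, with 24467.9 to 32307.4 in Ept6 and 26753.4 to 31313.5 in Ept9. Of 33 measured genes of oxidative phosphorylation 31 had an estimate below 0, beside 7070 of 14217 over all genes. Their median was -0.10, and -0.05 after quantile normalization and -0.15 after median centring. Of 24 ribosomal protein genes 23 lay below 0, but their median of -0.06 turned to 0.01 after quantile normalization, so that no direction is given for them. Of 10 measured housekeeping genes 9 lay below 0, with a median of -0.05. Estimates mostly below 0 were thus not particular to oxidative phosphorylation, and no direction of that pathway is read from them. Of 31 ion channel genes 3 had an unadjusted p under 0.05 and were higher in Ept6 (9.68% beside 3.78% of all genes). These were *Scn3a* (0.82), the calcium channel gene *Cacna1d* (0.40) and *Trpc1* (0.34). In that list 21 estimates lay above 0, beside 7147 of 14217 over all genes, and at 3 genes no direction is read from it. No gene of 19 for secretory granules and prohormone processing and none of 22 for endoplasmic reticulum chaperones had an unadjusted p under 0.05. The summed signal of every Ept9 array lay above that of every Ept6 array in 11 of the 28 lists and below it in 1, while the array medians ran the other way.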

How the data were processed

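RNA from DES-treated rat pituitaries was hybridised to Affymetrix rat arrays, 3 per line. The deposited values are a linear intensity per probe set, called the signal here, that the authors had scaled, since the trimmed mean (2% off each end) was 500.18 to 500.19 on the 6 arrays. Which software and background correction made the signal is not given in the sources used here. Detection calls were not used. From the signals, log2(signal + 16) was computed and fitted with limma 3.58.1 (lmFit and eBayes, R 4.3.3), Ept6 against Ept9 on their 6 arrays, and each of them against the mean of Ept1 and Ept2 in one fit of all 12. Calls used a Benjamini-Hochberg adjusted p under 0.05 over 31042 probe sets.

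Groups came from the sample titles. Of the probe sets, 20826 were annotated with 1 gene, 436 with several and 9780 with none, and only the first were named. The 14217 genes measured were each read through their brightest probe set for the lists and chromosomes. Named genes were the called ones, filled up to 8 probe sets per direction by unadjusted p among those whose arrays did not overlap, their other probe sets, the markers of the lists and Myc, Pvt1, A1bg and Esr1. The members and lists were chosen with earlier results of these data known, and genes said to be chosen after their values were seen fall outside that rule. The fit was tested on simulated data. No array was a copy of another (0 identical pairs). The number of arrays limits the precision. Each fit was repeated with a pseudocount of 1 or 64, with quantile or median normalization, with filters at the 40th and 60th percentile of mean signal, with a replicate block, an intensity trend, array weights, the Gapdh covariate or the spread of all 12 arrays, and without each array.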

Additional observations from a re-analysis of the deposited data

How the results depend on the processing

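No named gene changed direction under any alternative. Of 28 list medians 15 did in at least 1, all between -0.10 and 0.09 as reported (61 of 504 values, from -0.06 to 0.11), so no direction is read from those. The 5 probe sets called between Ept6 and Ept9 (3 higher in Ept6 and 2 in Ept9) stayed 5 under quantile normalization, median centring and array weights. The number was 1 (1 and 0) with a pseudocount of 1, 16 (10 and 6) with 64, 16 (8 and 8) and 29 (16 and 13) with filters at the 40th and 60th percentile, which tested 18625 and 12417 probe sets, 76 (35 and 41) with an intensity trend and 20 (9 and 11) with the spread of all 12 arrays. Limma called 0 (0 and 0) with the Gapdh covariate (2093 at an unadjusted p under 0.05) and 0 to 0 with each array left out (1950 to 2693). Against Ept1 and Ept2, the 18 calls of Ept6 became 45 with a pseudocount of 64, 69 and 113 with the filters, 99 with the trend, 0 with the Gapdh covariate (2037 at an unadjusted p under 0.05) and 12 to 24 with arrays left out, and the 70 calls of Ept9 became 111, 167 and 206, 191, 9, and 18 to 52, the lowest without Ept9 replicate 3. The causes were not tested.

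Samples of the same replicate number did not deviate together (correlations of 0.00119, -0.0160 and 0.0190), so the numbers were not taken to pair them. With the replicate block limma called 0 probe sets between Ept6 and Ept9 (0 and 0, with 2090 at an unadjusted p under 0.05), 10 for Ept6 and 12 for Ept9 against Ept1 and Ept2.

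All 3 called genes read through their brightest probe set lay on chromosome 3 or 10 (100%), as did 5 of 5 through any probe set, an alternative chosen after seeing the data. The share was 62.5% with a pseudocount of 64, 60% and 52.6% with the filters, 55.6% with the spread of all 12 arrays, 40.8% with the trend (20 of 49) and 35.9% at an unadjusted p under 0.001 (14 of 39). Where no gene was called there was no share. With 3 arrays per line, differences of dim genes depended on the pseudocount.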
